A study of Caenorhabditis elegans with 8 samples.

Results

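The genes described here are the PUF family RNA-binding protein genes of the nematode Caenorhabditis elegans, as a list of 9 gene IDs out of 12240 in the read count table: fbf-1 (WBGene00001401), fbf-2 (WBGene00001402), puf-3 (WBGene00004239), puf-5 (WBGene00004241), puf-6 (WBGene00004242), puf-7 (WBGene00004243), puf-8 (WBGene00004244), puf-9 (WBGene00004245) and puf-11 (WBGene00004247). Of the 9, 8 had a row in the table. The oocyte gene puf-11 had no row and was not analysed here, so the oocyte members below are 4 of the 5 listed. The members were set by family and by ID, not by a measured value. The samples were larvae at stage L4 that carried a FLAG-tagged fog-3 transgene, integrated in the genome as a single copy. The 4 FOG-3 libraries were purified with the antibody to FLAG, and the 4 control libraries came from the same tagged worms taken through the same steps with no antibody. Every worm therefore carried the transgene, and the controls measured RNA carried through without specific purification. The assay, iCLIP, crosslinks RNA to protein with ultraviolet light, purifies the protein and sequences the attached RNA. No library of unpurified RNA was used here, so that a more abundant mRNA and a more strongly associated one cannot be told apart.

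PUF proteins hold RNA in a curved array of repeats and bind short sequence elements, mostly in the untranslated region downstream of the coding sequence, where they commonly repress translation or promote decay. In the worm germline, FBF-1 and FBF-2 maintain stem cells and drive the switch from sperm to oocyte production by repressing mRNAs of the sperm fate pathway, in which FOG-3, a protein of the Tob/BTG family, acts near the end. PUF-8 acts in the mitotic germline and in spermatogenesis. PUF-5, PUF-6 and PUF-7 act in oocytes, PUF-3 and PUF-11 act in oocytes and early embryos, and PUF-9 acts in somatic tissue. The values below are reads from the mRNAs of these genes, so each protein's own binding was not measured.

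The FOG-3 libraries held 76790 to 186739 gene-assigned reads and the controls 14964 to 74892. Levels are given as CPM (reads scaled to library size) after TMM, a method that aims to set libraries level on the bulk of their genes. It did not do so fully: the median log2 fold change of FOG-3 over control was 0.74 over the 886 gene IDs tested. On the TMM scale 1 read was worth 3.58 to 8.43 CPM in FOG-3 libraries and 18.6 to 112.6 CPM in controls. Where no read was found, as many as 3 may have been missed, and these would amount to 55.9 CPM in TTGT, the deepest control, and to 337.8 CPM in TTAA, the shallowest. Libraries are named by the 4-letter tag of their column, and nothing beyond the design text says how separate the biological replicates were. Because gene lengths were not used, levels are compared between libraries for each gene and not between genes.

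The oocyte genes puf-6 and puf-7 gave the clearest difference. FOG-3 libraries held 76 puf-6 reads in TGGC, 41 in GGTT, 37 in CGGA and 66 in GGCA, and the controls held 2 in TTGT and 0 in each of the other 3. Every FOG-3 value, from 272.4 to 413.6 CPM, lay above every measured control value, of which the highest was 37.3 CPM. The separation rests on the deeper controls: the 3 reads that may have been missed amount to 152.1 CPM in AATA, below all FOG-3 values, but to 264.4 CPM in CCGG and 337.8 CPM in TTAA, which are of the size of the FOG-3 levels. Its mean level was 329.8 ± 59.7 CPM with the antibody and 9.32 ± 18.6 CPM without it (SD, n = 4). On the log2 scale puf-6 rose by 3.87 ± 0.67 (SE), with an edgeR quasi-likelihood adjusted p of 5.1e-08 over the 886 gene IDs that passed the count filter. A gene ID was called where this p, adjusted by Benjamini-Hochberg, was under 0.05, and the filter asked for about 10 reads in a library of middle size in at least 4 libraries.

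For puf-7 the FOG-3 libraries held 63 reads in TGGC, 42 in GGTT, 40 in CGGA and 53 in GGCA, and the controls 1 in TTGT and 0 in each of the other 3. Measured values of the groups did not overlap, with the same limit for controls CCGG and TTAA. Mean levels of puf-7 were 306.1 ± 53.6 CPM with the antibody and 4.66 ± 9.32 CPM without it (SD, n = 4). The lowest FOG-3 value, 225.8 CPM in TGGC, stood apart from the other 3, which ran from 329.3 to 337.0 CPM. It rose by 4.66 ± 0.79 on the log2 scale (SE), at an adjusted p of 2.9e-08 in edgeR.

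These were the 2 members that passed the filter on low counts, and both rose. The filter favours gene IDs that are high in 1 group, and 45.3% of all tested gene IDs were called higher in the same fit, with 27.5% called lower, so the pair stood with a large class of gene IDs. The median log2 fold change over all 886 was 0.74. By size of log2 fold change puf-7 ranked 80 and puf-6 ranked 122 among them. At the level seen in FOG-3 libraries, the 4 controls together would have held 30.1 puf-6 reads and 27.1 puf-7 reads on the TMM scale, and 69.4 and 62.5 reads with total counts, where 2 and 1 were found.

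PUF-6 and PUF-7 are near-identical proteins, and the counting of reads that map to several places is not stated, so the split of reads between both genes is uncertain. RefSeq's gene table (assembly WBcel235) lists puf-6 on chromosome II and puf-7 on chromosome IV, so the genes do not overlap. The share of puf-6 in the reads of the pair was 54.7% in FOG-3 library TGGC, 49.4% in GGTT, 48.1% in CGGA and 55.5% in GGCA. The 95% exact (Clopper-Pearson) intervals of all 4 libraries include an even split. Summed to 1 row, the pair had 418 FOG-3 reads and 3 control reads, and rose by 4.26 ± 0.53 on the log2 scale (SE), at an adjusted p of 1.7e-14 in edgeR. If shared reads were counted at both genes, the sum holds them more than once, and its SE and adjusted p are too small.

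**Figure D1:**
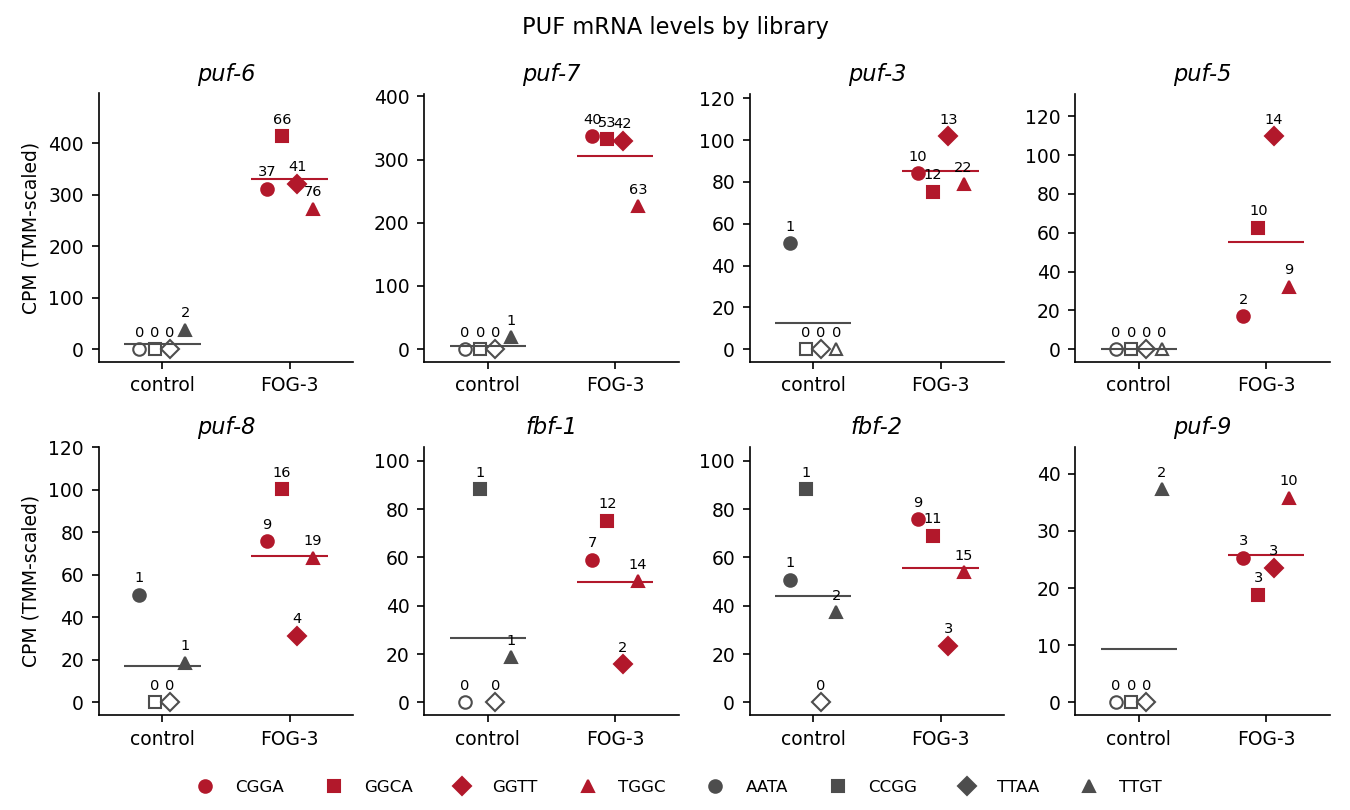
Level of each PUF mRNA (y axis, TMM-scaled CPM, with its own range per gene) in the 4 control and 4 FOG-3 libraries, with the number of reads beside each point, open symbols for 0 reads and a line at the group mean. Measured FOG-3 values lie above every control value for puf-6, puf-7, puf-3 and puf-5, and overlap the controls for puf-8, fbf-1, fbf-2 and puf-9.

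The other oocyte genes were read far less often. For puf-3 the FOG-3 libraries held 22 reads in TGGC, 13 in GGTT, 10 in CGGA and 12 in GGCA, and the controls 1 in AATA and 0 in each of the other 3. The FOG-3 values were close together, from 75.2 to 101.9 CPM, and all lay above the single control read, which amounts to 50.7 CPM. In control TTAA 1 read would have been 112.6 CPM, above all of them, so a level of this size could not be resolved there. Mean levels of puf-3 were 85.1 ± 11.8 CPM with the antibody and 12.7 ± 25.3 CPM without it (SD, n = 4). Since puf-3 has a near-identical paralog in puf-11, its reads may include reads of puf-11.

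For puf-5 there were 9 reads in TGGC, 14 in GGTT, 2 in CGGA and 10 in GGCA, and 0 in all 4 controls. Its level varied more than that of the other members, from 16.9 CPM in CGGA to 109.8 CPM in GGTT, a ratio of 6.51. Its mean level with the antibody was 55.4 ± 40.9 CPM (SD, n = 4). With the control group set to its floor of 3 reads over the group, puf-5 reads pooled over the FOG-3 libraries were at least 1.59-fold higher with TMM scaling and at least 3.68-fold higher with total counts.

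The genes known for roles in the stem cell region gave smaller differences than puf-6 and puf-7. For fbf-1 the FOG-3 libraries held 14 reads in TGGC, 2 in GGTT, 7 in CGGA and 12 in GGCA, and the controls 1 in TTGT, 1 in CCGG and 0 in the other 2. The single read in CCGG amounts to 88.1 CPM, above all 4 FOG-3 libraries, so the groups overlapped. Mean levels of fbf-1 were 50.01 ± 25.1 CPM with the antibody and 26.7 ± 41.9 CPM without it (SD, n = 4).

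For fbf-2 the FOG-3 libraries held 15 reads in TGGC, 3 in GGTT, 9 in CGGA and 11 in GGCA, and the controls 1 in AATA, 2 in TTGT, 1 in CCGG and 0 in TTAA. This was the member with the most control reads, 4 in all, and its groups overlapped. Mean levels of fbf-2 were 55.5 ± 23.2 CPM with the antibody and 44.03 ± 36.4 CPM without it (SD, n = 4). The genes fbf-1 and fbf-2 code for near-identical proteins and lie on chromosome II with 5 listed genes between them, and fbf-1 made up 40% to 52.2% of the reads of the pair in FOG-3 libraries. Their split carries the same uncertainty as that of puf-6 and puf-7.

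For puf-8 the FOG-3 libraries held 19 reads in TGGC, 4 in GGTT, 9 in CGGA and 16 in GGCA, and the controls 1 in AATA, 1 in TTGT and 0 in the other 2. Its lowest FOG-3 library, GGTT at 31.4 CPM, lay below control AATA at 50.7 CPM. Mean levels of puf-8 were 68.9 ± 28.5 CPM with the antibody and 17.3 ± 23.9 CPM without it (SD, n = 4). In all 3 of these genes GGTT was the lowest FOG-3 library.

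The somatic gene puf-9 was the least read member. FOG-3 library TGGC held 10 of its reads and the other 3 held 3 each, and the controls held 2 in TTGT and 0 in each of the other 3. The control value of 37.3 CPM lay above the highest FOG-3 value of 35.8 CPM, and mean levels were 25.9 ± 7.2 CPM with the antibody and 9.32 ± 18.6 CPM without it (SD, n = 4). At the FOG-3 level the 4 controls together would have held 2.60 reads of puf-9 on the TMM scale and 5.99 with total counts, where 2 were found.

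Pooling the reads of a group shows how far the control reads limit each fold. With TMM scaling the pooled fold was 27.1 for puf-7 (95% exact counting interval 4.80 to 1074), 15.04 for puf-6 (4.11 to 124.9) and 7.79 for puf-3 (1.34 to 313.1). It was 3.28 for puf-8 (0.860 to 27.9) and 2.39 for fbf-1 (0.615 to 20.5). For fbf-2 and puf-9 it was 1.30, with intervals of 0.468 to 5.01 and 0.313 to 11.5. The intervals of puf-6, puf-7 and puf-3 exclude equal levels and those of the other 4 do not. With total counts in place of TMM each fold was larger, at 5.52 for fbf-1 (1.42 to 47.4), 3.00 for fbf-2 (1.08 to 11.6) and 7.57 for puf-8 (1.98 to 64.3), and only the interval of puf-9 (0.723 to 26.5) still included equal levels among the members with a control read. These intervals cover counting error only, and PCR copies among the reads would make them too narrow. They also do not take out the shift of the typical gene ID. With the TMM factors used for these folds, the median log2 fold change in edgeR was 0.74 over the 886 gene IDs that passed the filter. With total counts it was 1.94 over these and 1.43 over all 12240 gene IDs. A fit of all 12240 with TMM factors set anew gave 1.15, on a scale that differs from that of the pooled folds. An interval that excludes equal levels therefore does not by itself set a gene apart from the others.

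**Figure D2:**
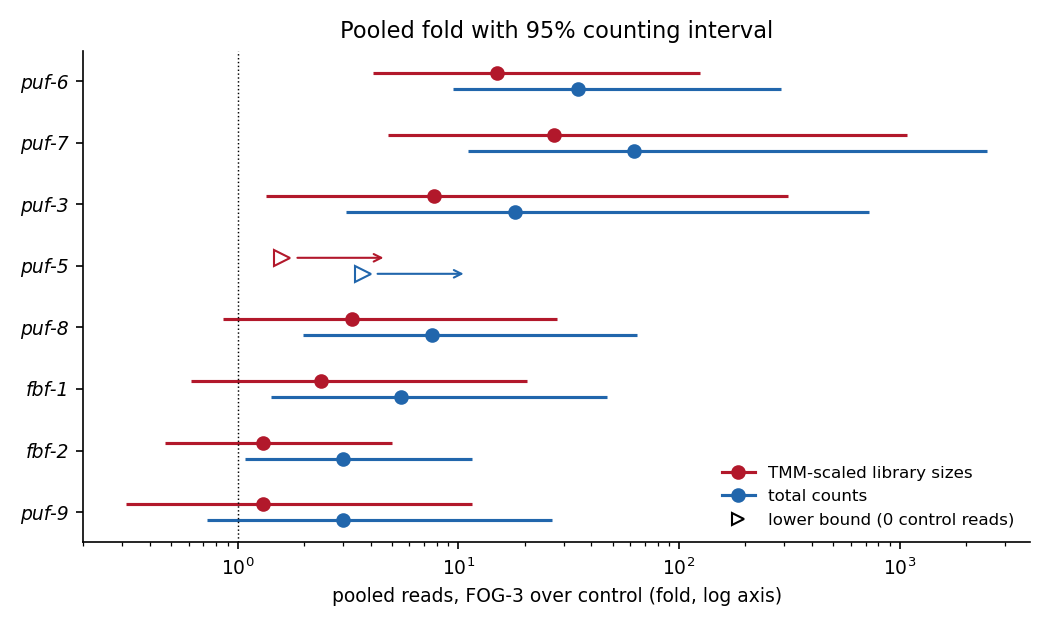
Pooled reads of the 4 FOG-3 libraries over those of the 4 controls (x axis, fold on a log axis) for each PUF mRNA, with TMM-scaled library sizes and with total counts, bars giving the 95% exact counting interval and open arrows a lower bound. The intervals of puf-6, puf-7 and puf-3 lie above a fold of 1 on both scales, while those of puf-8, fbf-1 and fbf-2 do so with total counts only. The upward shift of the typical gene ID is not taken out.

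Members below the filter were tested with edgeR on all 12240 gene IDs without a filter, with TMM factors and dispersions estimated anew. The scale therefore differs from that of the filtered fit. On the log2 scale puf-6 rose by 4.46 and puf-7 by 5.21 without the filter, against 3.87 and 4.66 with it. In the unfiltered fit 4 of the 8 members were called higher, puf-3, puf-5, puf-6 and puf-7, where 7.75% of all gene IDs were. None (0) was called lower, where 1.08% of all gene IDs were, and all 8 log2 fold changes were above 0 in this edgeR fit, so that none was lower at an unadjusted p under 0.05 either. The share of all gene IDs called higher depends on how many with few reads are tested, so 7.75% is a low standard for these members. It was 1172 of 5258 with 1 CPM in at least 4 libraries, and 45.3% of the 886 that passed the count filter. On the filtered gene IDs, DESeq2 called puf-6 and puf-7 higher along with 63.4% of all gene IDs tested, and limma-voom called them higher along with 44.2%. Other scalings of the edgeR fit with the filter also called both higher, where the share of all tested gene IDs called higher was 49.7% with upper-quartile factors, 66.4% with DESeq2 size factors, 67.3% with total counts and 79.7% with the most abundant gene ID as the scale. In the fit without a filter, puf-3 rose by 3.36 ± 0.95 on the log2 scale (SE), at an adjusted p of 0.0074 in edgeR. Its value was 6.27 without control AATA, which held the only control read of puf-3, and 2.72 without control TTGT. The rise of puf-5 was 5.48 ± 1.62 (adjusted p = 0.012), a fitted value that depends on the prior count because puf-5 had no control read. The values that did not pass were 2.22 ± 0.84 for puf-8 (adjusted p = 0.082), 1.77 ± 0.90 for fbf-1 (adjusted p = 0.30), 0.95 ± 0.74 for fbf-2 (adjusted p = 0.62) and 0.91 ± 1.02 for puf-9 (adjusted p = 0.65). The median over all gene IDs in this fit was 1.15, and fbf-2 and puf-9 lay slightly below it with TMM. With total counts they lay slightly above the median of 1.43, at 1.53 and 1.48. Most of the 12240 gene IDs had few reads, so this median too depends on the prior count. Over the 886 gene IDs that passed the count filter, the median with total counts was 1.94, above both genes. Without control TTGT, which held the only control reads of puf-9, its value was 4.65 (adjusted p = 0.36), above that fit's median of 1.83. The same 4 members were those whose measured FOG-3 values all lay above every measured control value, which held for 14.3% of all gene IDs. For puf-3 and puf-5 a single read in control TTAA, worth 112.6 CPM, would have ended this separation.

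The side of the threshold depended on the scaling or on a single library for all members but puf-6, puf-7 and puf-9. Without the deepest control, TTGT, adjusted p rose to 0.11 for puf-3 and 0.092 for puf-5, and the 2 members called were puf-6 and puf-7 (6.16% of gene IDs were called higher). Without FOG-3 library GGTT, puf-8 passed at an adjusted p of 0.046 (8.36% of gene IDs called higher). With total counts in place of TMM, 6 of 8 members were called higher, with puf-8 (adjusted p = 0.0041) and fbf-1 (adjusted p = 0.039) added, against 14.0% of all gene IDs. The DESeq2 size factors added puf-8 alone (adjusted p = 0.0068), for 5 of 8 against 13.1%. With each library scaled on its most abundant gene ID, 7 of 8 were called, all but puf-9, against 23.4%. The median of all gene IDs moved from 1.15 with TMM to 1.43 with total counts and 1.99 with the most abundant gene ID. On each of these scales, with all 8 libraries, the log2 fold changes of puf-3, puf-5, puf-6 and puf-7 were above those of puf-8, fbf-1, fbf-2 and puf-9. This order did not hold without control TTGT, where puf-9 at 4.65 lay above puf-3 at 2.72 with TMM. Differences between members were not tested.

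**Figure D3:**
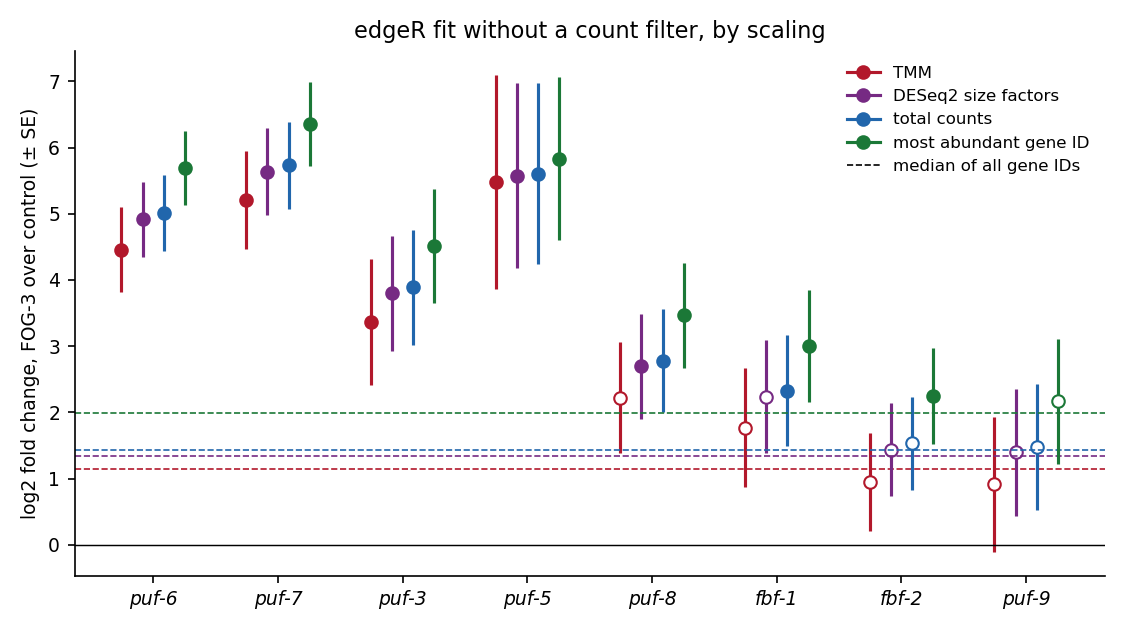
Log2 fold change of each PUF mRNA between FOG-3 and control (y axis, ± SE, 4 libraries per group) in the edgeR fit without a count filter under 4 scalings, with filled points where the adjusted p was under 0.05 and dashed lines at the median of all gene IDs. The values of puf-6, puf-7, puf-3 and puf-5 stand above the medians under all 4 scalings, while fbf-2 and puf-9 lie near them.

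Setting the oocyte members puf-3, puf-5, puf-6 and puf-7 against fbf-1, fbf-2 and puf-8 within a library needs no scaling between libraries. In FOG-3 library TGGC the oocyte members held 170 reads against 48 of the other subset, a share of 78.0%. The numbers were 89 against 25 (78.1%) in CGGA, 141 against 39 (78.3%) in GGCA and 110 against 9 (92.4%) in GGTT. The first 3 were thus within 1 percentage point of each other, and GGTT had the highest share. Its exact interval of 86.1% to 96.5% did not overlap with that of TGGC (71.9% to 83.3%), of CGGA (69.4% to 85.3%) or of GGCA (71.6% to 84.1%). These intervals cover counting error only, PCR copies among the reads would make them too narrow, and they leave out the spread between libraries. The mean share over the 4 FOG-3 libraries was 81.7% ± 7.2 (SD, n = 4).

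In controls the oocyte members held 1 of 3 reads in AATA, 3 of 7 in TTGT and 0 of 2 in CCGG, and TTAA held no read of either subset. Over all controls this made 4 of 12 reads, or 33.3% with an exact interval of 9.92% to 65.1%. The pooled FOG-3 share was 80.8% (77.5% to 83.8%), and 78.1% (74.3% to 81.6%) without GGTT. Pooling treats the reads of separate libraries as alike, and these intervals too cover counting error only, so whether the shares differ between groups was not tested. The members were chosen with earlier results known and control reads were few, so no p-value is given for this contrast. If reads of near-identical pairs were counted at both genes, these intervals are too narrow. With puf-6 and fbf-1 left out, so that each pair counted once, the mean FOG-3 share was 78.0% ± 8.5 (SD, n = 4). The share rests mostly on puf-6 and puf-7, which held 418 of the 510 FOG-3 reads of the oocyte members. In FOG-3 libraries puf-3 held 57 reads and puf-5 held 35, against 121 of fbf-1, fbf-2 and puf-8. Controls held 1 and 0 of these against 8. A high share is therefore not shown for puf-3 and puf-5 alone.

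**Figure D4:**
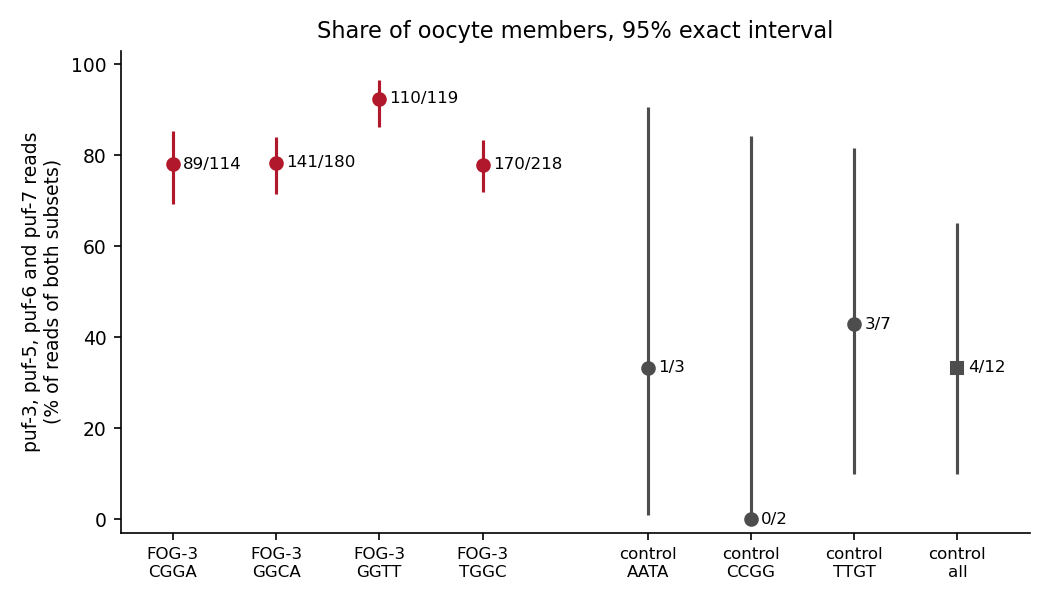
Reads of puf-3, puf-5, puf-6 and puf-7 as a percentage of the reads of these genes plus fbf-1, fbf-2 and puf-8 (y axis) in each FOG-3 library, each control with a read, and all controls together, with 95% exact intervals and the read numbers. FOG-3 library GGTT sits at 92.4% and the other 3 between 78.0% and 78.3%, and the pooled controls at 33.3%.

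Within the family, puf-6 and puf-7 together made up 61.0% to 68.0% of PUF reads in the FOG-3 libraries. All 8 members together held 228 reads in TGGC, 122 in GGTT, 117 in CGGA and 183 in GGCA, and among controls 3 in AATA, 9 in TTGT, 2 in CCGG and 0 in TTAA. This was 0.154% ± 0.028 of gene-assigned reads in FOG-3 (SD, n = 4) and 0.0081% ± 0.0055 in controls. A few abundant gene IDs take a larger share of control reads, and with the 10 most abundant left out of the totals the shares were 0.265% ± 0.047 and 0.035% ± 0.024 (SD, n = 4), so the ratio of means fell from 18.9 to 7.55. For fbf-1, fbf-2 and puf-8 the same step took the ratio from 4.81 to 1.82, and for the oocyte members from 67.4 to 30.1. No test was made on these sums.

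The summed PUF level ran alongside that of many other gene IDs. Over the 8 libraries, the best Pearson correlations of log2(CPM + 50) with it were 0.993 for WBGene00002202 (307 FOG-3 reads and 9 control reads) and 0.992 for WBGene00002000 (374 and 8 reads). Of 884 gene IDs compared, 169 had a correlation over 0.9. All of these values share the step between the groups and the depth of the libraries, and they are given as a description.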

How the data were processed

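The deposited file holds raw counts for 8 libraries, 1 row for each gene ID with a read. The submitters' processing notes name STAR 2.4.2 as well as HTSeq. Not given in the sources used here are the genome build, the strand setting, the treatment of multimapped reads and whether PCR copies were collapsed. Column names give the group of a library but not its numbered sample. Symbols of the 9 members come from the member list, and all 9 are in RefSeq's gene table (WBcel235), which holds none (0) of the table's WormBase IDs. The rules for a pathway list, for other PUF genes and for cell type markers could therefore not be applied. The members and lists were chosen with earlier results of these data known.

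The test was that of edgeR 4.0.16, run under R 4.3.3 (quasi-likelihood F test, TMM factors, group as the only term, filterByExpr with minimum count 10 and minimum total 15), which left 886 of 12240 gene IDs. Adjusted p is Benjamini-Hochberg over all tested IDs, with 0.05 as the threshold. Standard errors are the size of the log2 fold change over the square root of F. Alternatives used DESeq2 1.42.0, limma 3.58.1 (voom), other scalings, other filters, summed paralog pairs and leaving out each library. The fit was tested on simulated data with known changes, equal in number up and down. The real data were not balanced in this way, so that test does not cover the calls on the members. Named genes are all members and the 2 gene IDs most correlated with their sum. Reads outside genes (2.41% to 12.4% of all reads) and reads over several genes (0.311% to 0.696%) stayed out. Exact intervals used scipy 1.17.1.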

Additional observations from a re-analysis of the deposited data

Results flagged for a closer look

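Of 26 sets of 4 library values tested with Dixon's ratio, 5 held a library far from the other 3. Chance flags about 1 in 20, and 3 of the 5 are forms of the same share. The share of puf-3, puf-5, puf-6 and puf-7 in the reads of these genes plus fbf-1, fbf-2 and puf-8 was 92.4% in FOG-3 library GGTT, against 78.0% to 78.3% in the other 3. It was 91.4% in GGTT when puf-5 was left out and 90.8% when each near-identical pair was counted once. In GGTT the reads of fbf-1, fbf-2 and puf-8 were 2, 3 and 4, the lowest CPM of each gene among FOG-3 libraries, and those of puf-5 were 14, its highest. GGTT was also the shallowest FOG-3 library, with 76790 gene-assigned reads. The part of depth in this was not tested. For puf-7, FOG-3 library TGGC stood low at 225.8 CPM. Among controls, the summed PUF level was 0 in TTAA, the shallowest library with 14964 reads, and 152.1 to 176.3 CPM in the other 3, where 1 read in TTAA would have been 112.6 CPM.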

How the results depend on the processing

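The fits without a filter under another scaling, without a library or with summed pairs, and the share with 1 gene of each pair, were chosen after seeing the data. With the default filter, 2 members were called higher under every scaling, in DESeq2, in limma-voom and without any 1 library, fits in which 42.8% to 79.7% of all tested gene IDs were called higher. Without a filter or with 1 CPM in at least 4 libraries the count was 4, because more members were tested. Of all gene IDs, 948 of 12240 were called higher without a filter and 1172 of 5258 with the 1 CPM filter. With paralog pairs summed the count was 1 row, where 400 of 885 were called higher. Over 28 fits each, fitted log2 fold changes were 2.98 to 8.19 for puf-6 and 3.03 to 8.07 for puf-7, with the highest values without control TTGT, where neither gene had a control read. Without a filter, the 4 higher calls became 7 with the most abundant gene ID as the scale, 6 with total counts, 5 with DESeq2 size factors, 3 rows with pairs summed, 2 without control TTGT and 5 without FOG-3 library GGTT. The unfiltered fit with pairs summed called 949 of 12238 rows higher. No fit called a member lower or reversed a direction. Leaving the 10 most abundant gene IDs out of the totals gave a summed share of 0.265% in FOG-3 and 0.035% in controls. Leaving out single libraries gave 0.142% to 0.164% and 0.0068% to 0.0108%, and an oocyte share of 78.1% to 82.9%. The depth of the controls, with 14 PUF reads in all, limits every fold above. Upper-quartile scaling without a filter could not be computed. No paired analysis was possible because the columns carry no replicate number.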
